A study of Drosophila melanogaster with 29 samples.

Results

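The genes described here encode the subunits of the proteasome of Drosophila melanogaster, together with the testis paralogs of those subunits. They were chosen by name: each has a current symbol that starts with Prosalpha or Prosbeta, or that is Rpt or Rpn followed by a digit. Among 17872 annotated genes, 48 met this rule, 39 of them were measured on at least one kind of array, and 36 were measured on both. The embryo array held 76 spots for 36 of the genes, of 30377 spots tested, and the adult array held 41 probe sets for 39 of the genes, of 13966 tested. Genes whose subunit number is followed by T or R are called testis paralogs (16 by the rule, 13 measured on each array) and the others core subunits (32 by the rule, 23 measured in embryos and 26 in adults). Prosalpha1, Prosalpha1R, Prosbeta1, Prosbeta5R2, Rpn9, Rpn10, Rpt1, Rpt6 and Rpt6R met the rule and were not analysed here.

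The proteasome degrades proteins that carry ubiquitin chains. Its barrel is built from rings of alpha subunits, which gate the entrance, and rings of beta subunits, some of which cut the substrate. The regulatory particle that caps the barrel holds the Rpt ATPases, which unfold the substrate, and the Rpn subunits, which bind ubiquitin, remove it or hold the particle together. Drosophila carries duplicated genes for many of these subunits, and the duplicates are known for expression in the male germ line. Prosalpha6T, for example, is needed for sperm development. The adult libraries were made from whole flies, so the testis itself was not measured.

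The series asked what the gene Mnn1, which encodes the fly menin, does to gene expression when it is in excess or missing. In embryos, 18 two-colour arrays were hybridised. Of these, 16 set embryos labelled mnn++, which overexpress a full-length Mnn1 cDNA through GAL4 and UAS, against control embryos with the same driver but no Mnn1 construct. The driver is not named. The labels give 2 controls, cntrl1 and cntrl2, with no word on the difference between them. Collections were made at 2-4, 4-6, 6-8 and 2-16 h at 25 °C, with 2 arrays of opposite dye orientation for each window and control, and 2 further arrays set cntrl1 directly against cntrl2 at 2-16 h.

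In adults, 11 arrays were each hybridised with RNA of whole flies of 1 sex, aged 3 to 5 days and kept at 25 °C. The mnn- flies carried the alleles X46 and Y79, labelled protein-null: 3 male arrays (X46_Y79, Y79_X46 and Y79_Y79) and 2 female arrays (X46_Y79 and Y79_X46). The heterozygotes were 2 female arrays (X113_Y79 and X84_X46). The non-mutant flies were 1 wt array and 1 control array (X113_X84) of each sex. The free-text note on every adult sample calls it homozygous mutant, which the titles contradict, and the titles were followed. Within a sex and genotype, each adult array carried a different cross or stock label. The adult p-values measure the spread between arrays, which may hold differences between crosses or stocks as well as technical ones. Nothing in the labels says that any cross or stock was grown in more than 1 culture. In whole flies and whole embryos, fewer cells of a type and less RNA per cell cannot be told apart.

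A few facts of the series bear on what follows. The direction of the embryo ratios was not stated and was taken as likely mnn++ over control after turning the deposited sign, because all 8 values of Mnn1 at 2-16 h then share the direction of an overexpressed gene. The 2 Mnn1 spots had mean log2 ratios of 0.62 and 0.56 at 2-16 h, which did not pass the test (limma, adjusted p = 0.565 and 1.00). In the same spot order they had 0.14 and 0.027 at 2-4 h, 0.15 and 0.080 at 4-6 h, and 0.25 and 0.24 at 6-8 h. None of these passed either, so an excess of Mnn1 RNA was small or not seen in the early windows. In adults the Mnn1 probe set had 5.50, 5.41 and 5.17 log2 units in mnn- males, against 5.51 and 5.40 in non-mutant males. Whether this probe set lies in the part that the alleles lack is not given. In females it had 6.17 and 5.91 in mnn-, 5.63 and 5.96 in heterozygotes, and 5.63 and 5.75 in non-mutants. The difference between mnn- and non-mutant flies was -0.094 in males (limma, adjusted p = 0.936) and 0.36 in females (adjusted p = 1.00), and neither passed the test. Whether swapped ratios had been turned is not stated either, and they were taken as turned: the difference between the controls through mnn++ then correlated with the direct arrays at r = 0.30 across spots at 2-16 h, against 0.093 otherwise. With the swaps taken as turned, arrays of opposite orientation had a median correlation of -0.25 across spots and arrays of the same orientation 0.33. On that reading a dye effect is present, and averaging both orientations balances it. Genes within an array are not independent replicates. Among the adult arrays the 2 libraries labelled wt stood apart. The library labelled wt male had a median of 10.87 over the yolk protein genes Yp1, Yp2 and Yp3, against 6.93 to 7.34 in the other 4 male libraries and 12.22 to 13.14 in females. Its median over 15 ovary and egg probe sets was 7.60, against 6.27 to 6.49 in the other male libraries. The library labelled wt female had a median of 10.51 over the same probe sets, against 8.98 to 9.42 in the other 5 female libraries. The counts of adult members that passed are therefore also given without each.

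Between the sexes, core subunits and testis paralogs stood on opposite sides. Of 28 core probe sets 26 were lower in males than in females and 0 were higher, whereas all 13 paralog probe sets were higher in males (limma on 11 arrays with genotype as a term, Benjamini-Hochberg adjusted p under 0.05). Among all probe sets 33.0% were lower and 32.4% were higher by the same test. The median difference, males minus females, was -0.79 on the log2 scale over the core subunits and 0.94 over the paralogs, beside 0.033 over all probe sets. Without the wt male library the counts stayed at 26 and 13, and the medians were -0.83 and 0.91. Without the wt female library they were again 26 and 13, with medians of -0.82 and 0.90. The share of all probe sets that passed was not counted with a library left out. Leaving out the wt male library moved single differences by -0.075 to 0.043 for core probe sets and by -0.11 to 0.031 for paralogs.

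**Figure D1:**
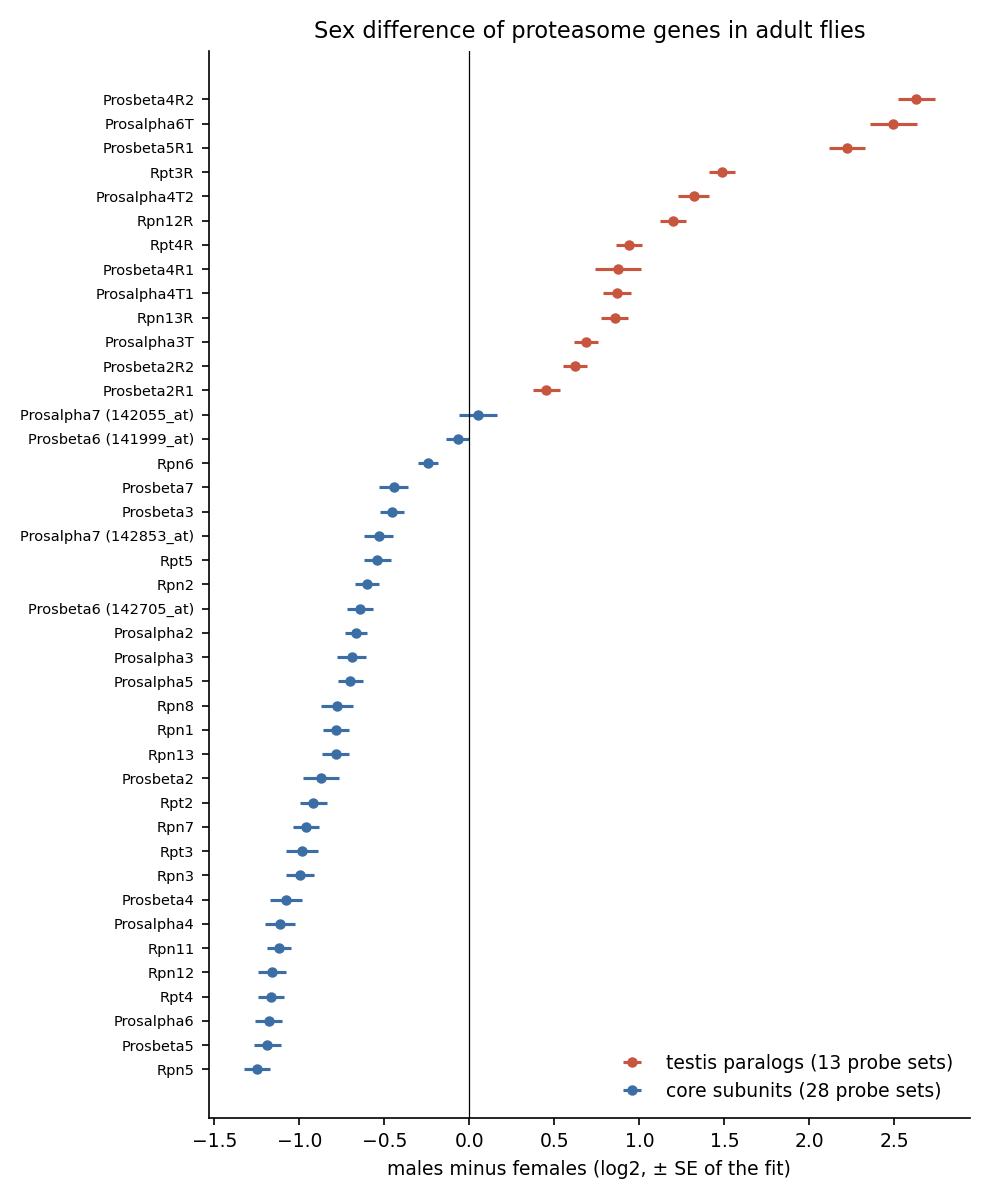
The x axis gives the difference between males and females on the log2 scale, with the standard error of the fit as bars, and each row is 1 probe set. All 13 testis paralogs (red) lie above 0, from 0.45 to 2.63, and the core subunits (blue) lie from -1.25 to 0.05.

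The core subunits fell on the lower side in males in every compartment of the complex. Of the alpha ring 6 of 7 probe sets were lower in males (median -0.69), of the beta ring 6 of 7 (median -0.64), of the ATPases 4 of 4 (median -0.95) and of the non-ATPase subunits 10 of 10 (median -0.87). Rpn5, a subunit of the lid of the regulatory particle, differed the most among them. Its levels in males were 8.15, 8.32 and 8.21 in mnn- and 8.47 and 8.34 in non-mutants, and in the 6 female libraries they ran from 9.26 through a median of 9.53 to 9.62. The male and female libraries did not overlap, and the difference was -1.25 ± 0.078 (SE, adjusted p = 3.07e-08), 2.38-fold lower in males.

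Prosbeta5, which carries the chymotrypsin-like activity of the barrel, came next. It measured 8.62, 8.74 and 8.61 in mnn- males and 8.87 and 9.02 in non-mutant males, while the females ran from 9.76 through 9.95 to 10.02. The groups did not overlap (-1.19 ± 0.078, adjusted p = 4.94e-08). Prosalpha6 of the alpha ring (-1.18), the ATPase Rpt4 (-1.17), the lid subunit Rpn12 (-1.16) and Rpn11, the subunit that removes ubiquitin chains from substrates (-1.12), made up the rest of the 6 lowest.

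The smallest differences that passed were those of the lid subunit Rpn6 and of 2 beta subunits. Rpn6 had a mean of 7.91 ± 0.073 in males and 8.08 ± 0.12 in females (SD, n = 5 and 6), and its libraries overlapped between the sexes (-0.24 ± 0.061, adjusted p = 0.00335). Prosbeta7 differed by -0.45 ± 0.084 and Prosbeta3 by -0.45 ± 0.072. The range from Rpn6 to Rpn5 therefore spans 1.18-fold to 2.38-fold lower in males.

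The 2 core probe sets that did not pass were second probe sets of genes that did. For Prosalpha7, the bright probe set had 8.27 ± 0.14 in males and 8.80 ± 0.094 in females and passed, whereas the dim one had 4.13 ± 0.17 and 4.06 ± 0.17 and did not (0.05 ± 0.11, adjusted p = 0.718). For Prosbeta6, the bright one had 9.32 ± 0.077 in males and 9.97 ± 0.10 in females, and the dim one had 4.22 ± 0.10 and 4.29 ± 0.064 (-0.07 ± 0.068, adjusted p = 0.408). Both dim probe sets lay below the array medians of 5.46 to 5.53.

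Counted over libraries rather than by the test, every male library lay below every female library in 25 of 28 core probe sets (29.8% of all probe sets), and above in 13 of 13 paralog probe sets (25.6% of all probe sets). The 3 core probe sets that overlapped were Rpn6 and the 2 dim ones. No member lay the other way round.

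Among the testis paralogs 3 of the barrel differed most. Prosbeta4R2, a paralog of the beta ring subunit Prosbeta4, had 6.36, 6.09 and 6.09 in mnn- males and 5.72 (wt) and 5.44 (control) in non-mutant males, against 3.16, a median of 3.29 and 3.34 over the 6 female libraries. The sexes were far apart and the female values lay within a narrow band. The difference was 2.63 ± 0.11 (adjusted p = 1.10e-09). Its neighbour Prosbeta4R1, separated from it by 1 gene in the reference annotation, differed by 0.87 ± 0.13, with males from 4.54 to 5.17 and females from 3.81 to 4.13. The core gene Prosbeta4 stood the other way (-1.08 ± 0.094, adjusted p = 5.93e-07).

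Prosalpha6T had 6.00, 5.74 and 6.06 in mnn- males, 5.70 and 5.30 in non-mutant males, and from 3.02 through 3.27 to 3.53 in females. The difference was 2.49 ± 0.14 (adjusted p = 1.13e-08), set against -1.18 for Prosalpha6. Prosbeta5R1, a paralog of the catalytic Prosbeta5, had 6.64, 6.50 and 6.43 in mnn- males, 6.38 and 6.10 in non-mutant males, and from 3.96 through 4.19 to 4.40 in females. It differed by 2.22 ± 0.11 (adjusted p = 3.58e-09), set against -1.19 for Prosbeta5. In all 3 pairs the paralog and the core gene moved in opposite directions between the sexes, with no overlap of libraries in either.

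**Figure D2:**
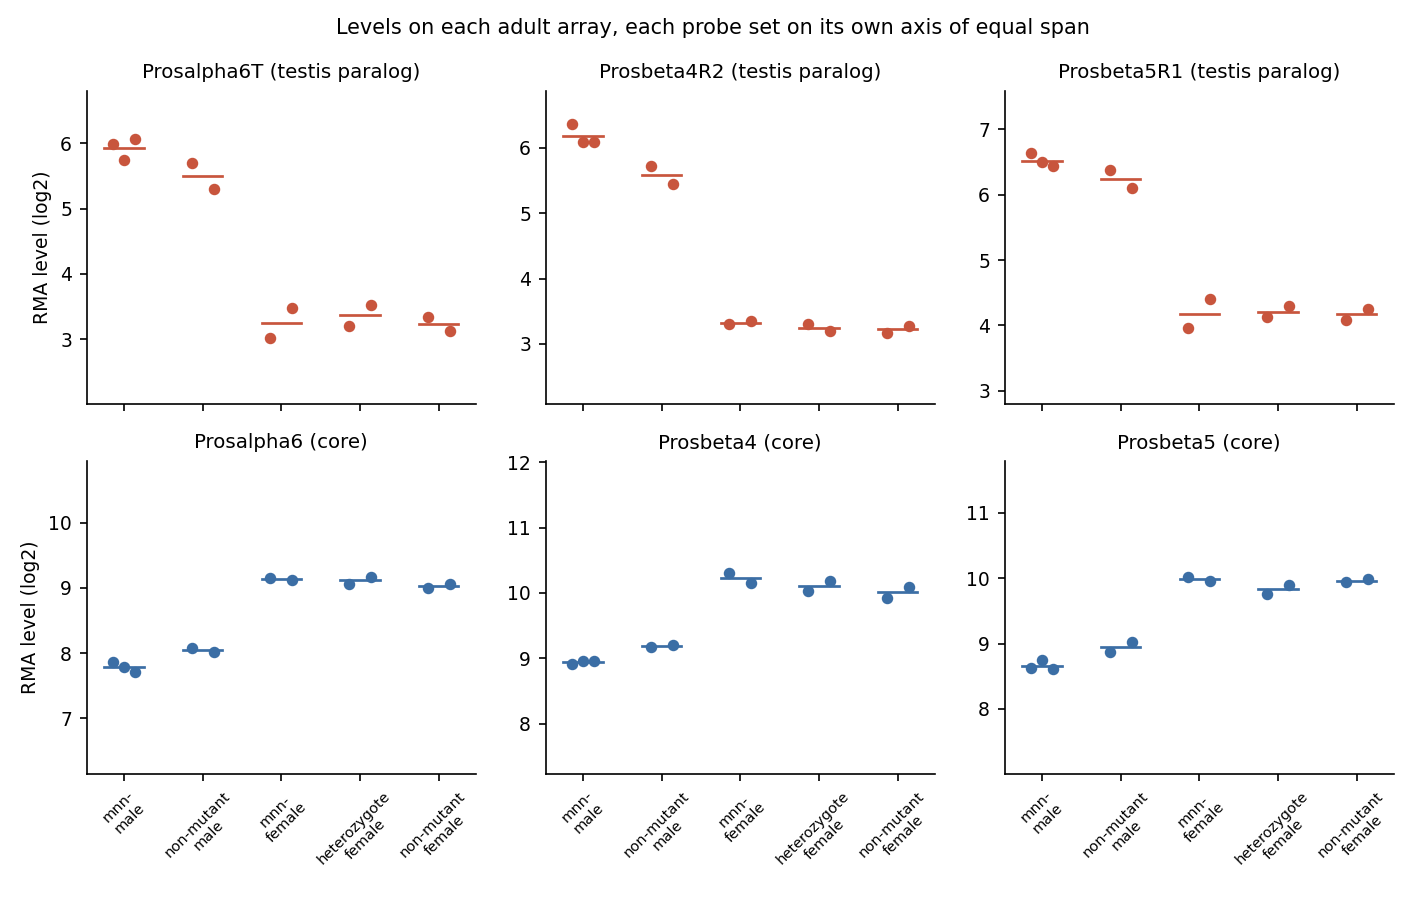
Each panel shows the RMA level (log2) of 1 probe set on every adult array, with the group mean as a bar; the upper row holds testis paralogs and the lower row their core counterparts. The paralogs are high in the 5 male libraries and the core genes in the 6 female libraries, and levels of different probe sets cannot be compared.

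The ATPase paralog Rpt3R had 5.11, 5.09 and 5.07 in mnn- males, 5.09 and 4.97 in non-mutant males, and from 3.45 through 3.61 to 3.77 in females (1.49 ± 0.074, adjusted p = 4.68e-09). Its male libraries were the most alike of all paralogs, with an SD of 0.054. Prosalpha4T2 had 7.28, 7.08 and 7.04 in mnn- males, 6.91 and 6.72 in non-mutant males, and from 5.57 through 5.71 to 5.77 in females (1.32 ± 0.091, adjusted p = 7.10e-08). Rpn12R, a paralog of the lid subunit Rpn12, had 4.97, 5.08 and 5.21 in mnn- males, 4.79 and 4.86 in non-mutant males, and from 3.69 through 3.77 to 3.91 in females (1.20 ± 0.077, adjusted p = 3.75e-08). These 3 paralogs thus belong to the ATPases, the alpha ring and the lid, and none of them overlapped between the sexes.

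The other paralogs differed less. Rpt4R differed by 0.94, Prosalpha4T1 by 0.87, Rpn13R, a paralog of the ubiquitin receptor Rpn13, by 0.85, Prosalpha3T by 0.69 and Prosbeta2R2 by 0.62. Prosbeta2R1, like Prosbeta2R2 a paralog of the beta subunit with trypsin-like activity, differed least, with 5.66 ± 0.11 in males and 5.19 ± 0.10 in females (SD, n = 5 and 6; 0.45 ± 0.080, adjusted p = 0.000268). The median over the list was 5.06 to 5.21 per male library, against 3.78 to 4.05 per female library. Only Prosalpha4T2 and Prosbeta2R2 lay above the median probe set over all libraries. In females, 7 probe sets for genes of the accessory gland, an organ of males, ran from 2.51 to 5.34, and the female means of 11 of the 13 paralogs lay below the upper end of that range. No detection calls were used, so the differences of these paralogs may be lower limits, and no folds are given for them.

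Both sides of this pattern were present among mnn- and among non-mutant flies. The heterozygotes had no male array, so they have no sex difference. Among mnn- flies 26 core probe sets were lower in males (30.4% of all probe sets were) and 13 paralogs were higher (28.1%). Among non-mutant flies 25 core probe sets were lower (28.7%) and 13 paralogs were higher (24.7%), and without the wt male library these counts were 23 and 13, without the wt female library 24 and 13. The paralog differences ran from 0.42 (Prosbeta2R1) to 2.86 (Prosbeta4R2) in mnn- flies and from 0.49 to 2.36, for the same genes, in non-mutant flies.

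Markers of other tissues differed between the sexes too, and their part in these differences was not tested. Of 18 testis probe sets 15 were higher in males (median 3.38), with a summed linear level of 11507 to 14585 in male libraries, against 574 to 740 in female libraries. The testis genes can, comr and 1 of 2 probe sets of mia did not pass. Of 15 ovary and egg probe sets 14 were lower in males (median -2.68) with sums of 1220 to 7552, against 9083 to 40576 in females. All 7 accessory gland probe sets were higher in males. Of 5 muscle probe sets 5 were higher in males (0.47 to 2.04), and of the 3 yolk protein probe sets 3 were lower (median -4.95).

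Other genes of the ubiquitin and proteasome pathway were split between both directions. Of 27 probe sets for 23 of 28 listed genes, 13 were lower in males and 6 were higher, with a median of -0.13. The lower ones with the largest differences were Cul1, a scaffold of ubiquitin ligases (-1.64 ± 0.084), Rad23, which ferries ubiquitylated proteins to the proteasome (-1.40 ± 0.10), Sem1, a small lid subunit whose symbol falls outside the rule (-1.36 ± 0.11), 1 of 2 probe sets of the proteasomal deubiquitinase Usp14 (-1.27 ± 0.071; the other, at 0.021, did not pass) and the proteasome activator REG (-1.11 ± 0.090). The highest was ntc, an F-box protein needed for sperm development (1.05 ± 0.12). Chosen after their values were seen, Uch-L5R and Uch-L5 lay as the subunit pairs did, with 0.69 ± 0.094 for Uch-L5R and -0.62 ± 0.092 for Uch-L5, a deubiquitinase of the proteasome.

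Loss of Mnn1 in adults changed no member past the threshold. With both sexes in 1 fit, 0 of 41 probe sets passed for mnn- against non-mutant flies (limma, adjusted p), where 0.0143% of all probe sets passed. At an unadjusted p under 0.05 there were 4 members, beside 7.40% of all probe sets. In males 0 members and 0.0286% of all probe sets passed, with 10 members and 8.48% of all at the unadjusted level. In females 0 members and 0.00716% of all passed, with 1 member and 4.03% of all unadjusted. Heterozygous against non-mutant females gave 0 members and 0% of all, with 1 member and 2.21% of all unadjusted. The test of whether the genotype difference depends on sex gave 0 members and 0% of all, with 10 members and 4.56% of all unadjusted. Leaving out the wt male library, the wt female library or both gave 0 for each of these comparisons as well, and the unadjusted count for the dependence on sex was 3 without the wt female library.

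**Figure D3:**
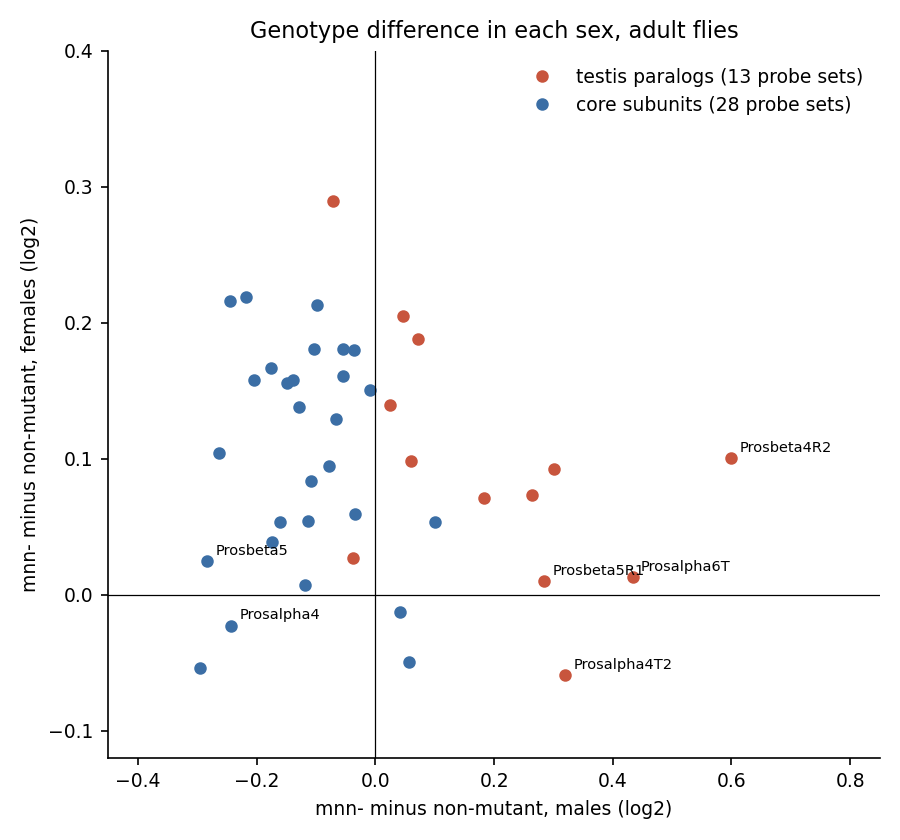
The difference between mnn- and non-mutant flies (log2) is plotted for males on the x axis and females on the y axis, with 1 point per probe set. The paralogs (red) reach 0.60 in males and the core subunits (blue) -0.29, and no point passed the test in either sex.

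In males the highest values, none past the test, belonged to testis paralogs. Prosbeta4R2 was highest, and in the libraries given above all 3 mnn- males lay above both non-mutant males (0.60 ± 0.12, adjusted p = 0.134, 95% interval 0.34 to 0.86). Prosalpha6T was at 0.43 ± 0.17 (adjusted p = 0.527), Prosalpha4T2 at 0.32 ± 0.10 (adjusted p = 0.394) and Rpn13R at 0.30 ± 0.10 (adjusted p = 0.425). Over all 13 paralogs the median was 0.18, beside -0.0045 over all probe sets. The mnn- males lay above both non-mutant males in 7 of 13 paralogs (10.2% of all probe sets) and below them in 0.

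The core subunits lay the other way in males. The lowest values were Prosalpha5 (-0.29 ± 0.093, adjusted p = 0.373), with 7.80, 7.82 and 7.98 in mnn- males against 8.20 and 8.12 in non-mutants, Prosbeta5 (-0.28 ± 0.092, adjusted p = 0.401), Prosalpha6 (-0.26 ± 0.087, adjusted p = 0.407) and Prosbeta4 (-0.24 ± 0.094, adjusted p = 0.492). The mnn- males lay below both non-mutant males in 12 of 28 core probe sets (10.5% of all probe sets) and above in 0. The median over the list was -0.12. The wt male library shifted these values without turning them: set against the control male alone, with no test, the core median was -0.088 and the paralog median 0.23, and set against the wt male alone they were -0.14 and 0.15.

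In females the core values were mostly positive, and so were those of the paralogs, given below. The mnn- females lay above both non-mutant females in 18 of 28 core probe sets, where 18.8% of all probe sets did, and below them in 0, where 17.1% did. The core median was 0.12, with Prosbeta2 (0.22 ± 0.13) and Prosbeta4 (0.22 ± 0.10) highest of the core and an adjusted p of 1.00 for each. Prosbeta4 had 10.30 and 10.16 in mnn- females, 10.03 and 10.18 in heterozygotes, and 9.93 and 10.10 in non-mutants, so the heterozygotes overlapped both. Set against the control female alone, with no test, the core median was 0.070, and set against the wt female alone it was 0.15. With a negative value in males and a positive one in females, Prosbeta4 had the largest sex-by-genotype value of the core (-0.46 ± 0.14, adjusted p = 0.992), which did not pass. In the heterozygotes the core median was -0.024, and the lowest were Prosalpha4 (-0.26 ± 0.13) and Rpn6 (-0.21 ± 0.091), neither past the test. Of the 13 paralogs, 12 lay above 0 in mnn- females (median 0.092), with Prosalpha4T1 highest (0.29) and none past the test. The mnn- females lay above both non-mutant females in 6 of 13 paralogs, where 18.8% of all probe sets did. In the heterozygotes 11 of 13 paralogs lay above 0, with a median of 0.048.

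Some markers moved along with genotype, and their part in these values was not tested. The median over 18 testis probe sets was 7.60, 7.50 and 7.57 in mnn- males, against 7.14 (wt) and 7.39 (control) in non-mutant males, with 0 probe sets past the test and 1 at an unadjusted p under 0.05. The testis probe sets were split in direction: 11 differences lay above 0 and 7 below, from -0.24 to 0.36, with a median of 0.096. Muscle probe sets summed to 546 to 639 in mnn- males, against 902 to 1310 in non-mutant males, with 1 of 5 lower past the test. Of 7 accessory gland probe sets 1 was lower in mnn- males. In females the ovary and egg probe sets summed to 9083 to 9281 in mnn-, 9566 to 10931 in heterozygotes and 11555 to 40576 in non-mutants, where the wt library gave the upper value. Muscle probe sets summed to 189 to 213 in mnn- females, 241 to 337 in heterozygotes and 276 to 294 in non-mutants. All 5 of their differences between mnn- and non-mutant females lay below 0 (median -0.50), with 0 past the test.

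In embryos, 3 core subunits of the barrel were higher in mnn++ embryos when both controls and all 4 windows were averaged. Both spots of Prosbeta5, of Prosbeta7 and of Prosalpha5 passed, making 6 of 50 core spots, and 0 of 26 paralog spots passed (limma over 4 windows, adjusted p), where 0.221% of all spots were called higher. At an unadjusted p under 0.05 there were 13 of the 50 core spots and 3 of the 26 paralog spots, beside 11.4% of all spots. No member was called lower. The changes were small: 0.25 ± 0.035 and 0.28 ± 0.039 for the spots of Prosbeta5 (adjusted p = 0.0214 and 0.0168), 0.26 ± 0.043 and 0.24 ± 0.035 for Prosbeta7 (0.0330 and 0.0219), and 0.28 ± 0.040 and 0.25 ± 0.042 for Prosalpha5 (0.0219 and 0.0351). When the spots of a gene were averaged first, a choice made after seeing the data, the same 3 genes passed and Prosbeta3 joined them (0.23 ± 0.045, adjusted p = 0.0468), where 0.749% of all genes were called higher, and Prosbeta3 is described with them for that reason.

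The calls depended on which windows and controls were averaged. Leaving out the 2-4 h, 4-6 h or 6-8 h window left 0 member spots past the threshold, and leaving out 2-16 h left 5. With 1 window left out the ratios of the 6 spots ran from 0.20 to 0.31, beside 0.24 to 0.28 with all 4. Against cntrl1 alone 0 member spots and 0% of all spots passed (7 members and 6.91% of all unadjusted), and against cntrl2 alone 2 passed, 1 of Prosbeta5 (0.42 ± 0.059) and 1 of Prosalpha5 (0.46 ± 0.064), with an adjusted p of 0.0381 each, where 0.161% of all spots were called higher. Without the 4-6 h or the 6-8 h window the count against cntrl2 was 0. For the fits with a window left out, the share of all spots that passed was not counted. These lost calls can therefore not be read as particular to the members.

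**Figure D4:**
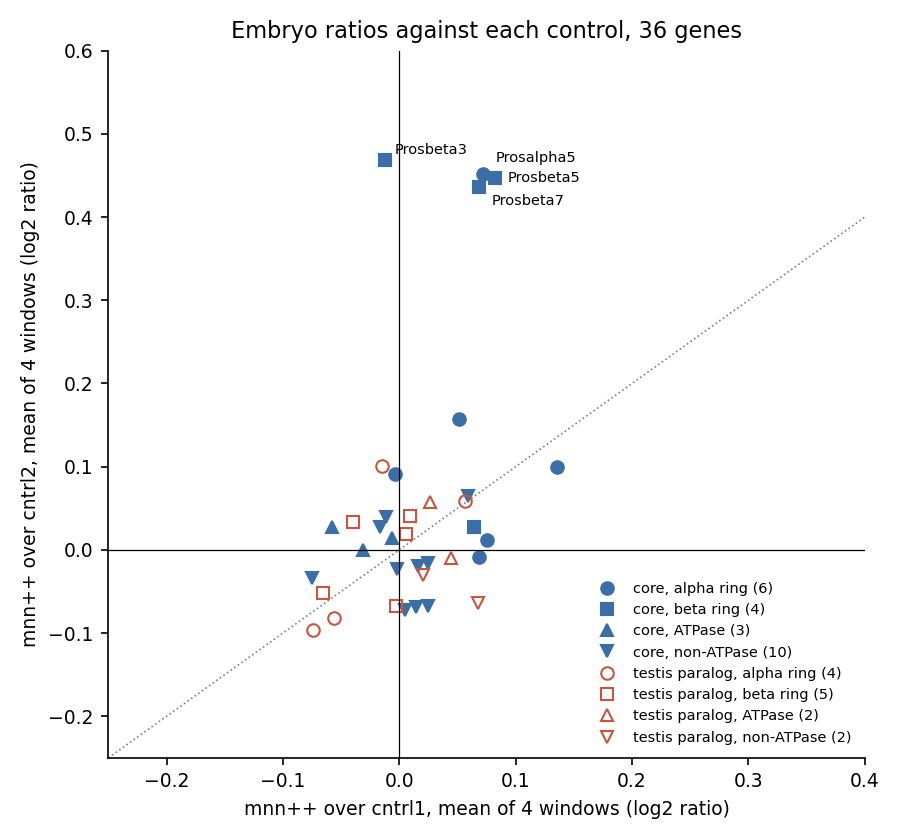
Each of 36 genes is placed by its mean log2 ratio over 4 windows against cntrl1 (x axis) and cntrl2 (y axis), with symbols for the compartment of the proteasome, core genes filled and testis paralogs open. Prosalpha5, Prosbeta3, Prosbeta5 and Prosbeta7 stand at 0.44 to 0.47 against cntrl2 and at -0.013 to 0.082 against cntrl1; the dotted line marks equal values.

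Window by window, mnn++ over cntrl2 gave Prosbeta5 log2 ratios of 0.52, 0.55, 0.18 and 0.54 at 2-4, 4-6, 6-8 and 2-16 h, and mnn++ over cntrl1 gave 0.089, 0.072, 0.23 and -0.064. On single arrays its ratio ran from 0.049 to 0.82 against cntrl2, with 8 of 8 above 0, and from -0.23 to 0.34 against cntrl1, with 6 of 8 above 0. Prosalpha5 had 0.58, 0.63, 0.28 and 0.31 against cntrl2, and 0.15, -0.20, 0.27 and 0.061 against cntrl1. For both genes only the 6-8 h window gave like values against the 2 controls.

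Prosbeta7 had 0.43, 0.55, 0.18 and 0.58 against cntrl2, and 0.024, -0.070, 0.24 and 0.075 against cntrl1. Prosbeta3 had 0.21, 0.57, 0.33 and 0.76 against cntrl2, and 0.055, -0.32, 0.15 and 0.066 against cntrl1. Averaged over windows, the ratios against cntrl2 were 0.45 ± 0.18 for Prosbeta5, 0.45 ± 0.18 for Prosalpha5, 0.44 ± 0.18 for Prosbeta7 and 0.47 ± 0.25 for Prosbeta3 (SD, n = 4 windows), while those against cntrl1 were 0.082 ± 0.12, 0.072 ± 0.20, 0.068 ± 0.13 and -0.013 ± 0.21 in the same gene order. Only the ratios against cntrl2 exceeded their spread between windows.

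**Figure D5:**
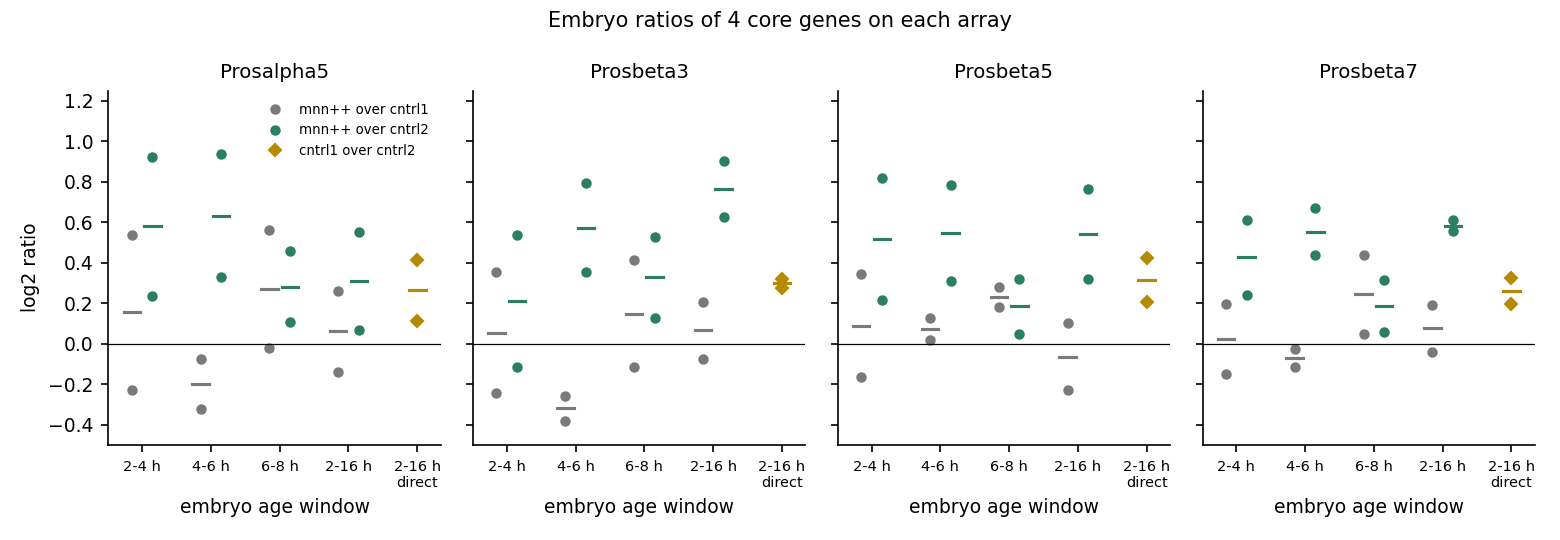
The log2 ratio of 4 core genes on each array (points; bars are means of the 2 dye orientations) is shown by window, for mnn++ over cntrl1 (grey), mnn++ over cntrl2 (green) and cntrl1 over cntrl2 (ochre). Ratios against cntrl2 lie mostly above those against cntrl1, and the direct ratio of the controls lies above 0 on both arrays for each gene.

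The direct arrays of the controls gave the same 4 genes a ratio above 0. At 2-16 h, cntrl1 over cntrl2 was 0.42 and 0.21 for Prosbeta5, 0.41 and 0.11 for Prosalpha5, 0.32 and 0.20 for Prosbeta7, and 0.32 and 0.28 for Prosbeta3 on the 2 arrays. These arrays share no hybridisation with the mnn++ arrays, but nothing says whether they share RNA. The difference between the ratios against cntrl2 and cntrl1 was tested over the 4 windows, and 0 member spots and 0.0395% of all spots passed (9 members and 7.67% of all unadjusted). The highest were the 2 spots of Prosbeta3, at 0.50 ± 0.11 (adjusted p = 0.216) and 0.46 ± 0.13 (adjusted p = 0.368).

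Dye orientation also went with these ratios, and its part was not tested. Against cntrl2, Prosbeta5 averaged 0.67 where mnn++ was in Cy3 and 0.22 where it was in Cy5, and Prosalpha5 averaged 0.72 and 0.19. Against cntrl1 the same orientations gave 0.21 and -0.049 for Prosbeta5, and 0.32 and -0.18 for Prosalpha5. With each array as its own value 0 member spots passed, and the share of all spots was not counted for that fit.

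The barrel and the regulatory particle differed in how many core genes lay above 0 over the 4 windows, which is given as a description. Of the alpha and beta subunits 10 of 10 lay above 0 (median 0.11), and of the Rpt and Rpn subunits 5 of 13 did (median -0.012), beside 48.0% of all spots and a median of -0.0026. Against cntrl2 the alpha and beta median was 0.32 at 2-4 h and 0.20 at 4-6 h, with 10 of 10 genes above 0 in each, and 0.035 at 6-8 h and 0.018 at 2-16 h, with 5 of 10 in each. Against cntrl1 it was 0.051, 0.045, 0.15 and 0.049 in the 4 windows, with 9, 7, 9 and 9 of 10 genes above 0. Of all spots, 47.6% to 50.6% lay above 0 in each of these comparisons. Apart from the 4 genes above, Prosalpha6 (0.12 ± 0.11) and Prosalpha7 (0.10 ± 0.052; SD, n = 4 windows) were the highest alpha and beta gene means, named after their values were seen, and neither passed.

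The testis paralogs stayed near 0 in embryos. The embryo values are ratios without levels, so a spot with no signal cannot be told from a gene whose level was unchanged. Over the 4 windows 7 of 13 gene means lay above 0 (median 0.0019), from -0.085 for Prosalpha3T to 0.058 for Prosalpha6T. The lowest spot was one of Prosalpha3T (-0.15 ± 0.049, adjusted p = 0.271), which reached -0.33 at 4-6 h (adjusted p = 0.294). Both spots of this gene averaged together gave -0.085 over the windows and -0.19 at 4-6 h, so its other spot lay higher. Prosbeta4R2, Prosbeta5R1 and Rpt3R, which were among the 4 most different between the adult sexes, had 0.013, 0.025 and 0.042. The difference between paralogs and core genes in embryos was not tested.

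Within single windows 0 member spots and 0% of all spots passed at 2-4, 4-6, 6-8 or 2-16 h. Each window held 1 value against cntrl1 and 1 against cntrl2, and how far these lay apart served as the error of this test. Genes with unlike ratios against cntrl1 and cntrl2, such as Prosalpha5 at 4-6 h (-0.20 and 0.63), were therefore harder to call. For such genes the 0 cannot be read as no change within a window. At the unadjusted level there were 10 member spots at 2-4 h (7.33% of all spots), 5 at 4-6 h (10.3%), 2 at 6-8 h (5.23%) and 1 at 2-16 h (2.68%). The test for a difference among the 2-4, 4-6 and 6-8 h windows called 0 member spots and 0% of all spots (2 members and 4.19% of all unadjusted). Of the 58 embryo spots for 21 other pathway genes 0 passed over the 4 windows (13 unadjusted, beside 11.4% of all spots; median 0.010).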

How the data were processed

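The embryo values were deposited as log ratios, for which the submitters' processing notes name version 2.12.0 of limma. Their log base and the turning of dye swaps are not given in the sources used here. They were read as log2 and as turned. The adult values are log2 RMA expression values deposited by the authors, computed with affy 2.12.0 per the submitters' processing notes. Probes were named through their current gene, and 3 probes of several genes were left out. Differences in RMA level were tested within a probe set, and levels set side by side across probe sets, as medians or sums, are descriptions. Members and lists were chosen with earlier results of these data known.

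In embryos, dye orientations were averaged, giving 1 value per window and control, and 30377 spots were fitted. In adults, 13966 probe sets were fitted without a filter on low values, with 44 control probe sets left out. Tests used limma 3.58.1 in R 4.3.3 (lmFit and eBayes, two-sided, Benjamini-Hochberg adjusted p under 0.05 over all probes). The steps were tested on simulated data with shifts larger than the embryo changes described here. The simulation held no dye effect and no difference between the controls, so it does not bear on the embryo calls. Named were all testis paralogs and, per comparison, up to 6 highest and 6 lowest core members past the threshold, or 4 and 4 where none passed. The number of arrays limits the precision. Alternatives left out windows or arrays, changed scaling, centring, the filter on dim probe sets and the variance model, and used each control alone.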

Additional observations from a re-analysis of the deposited data

Results flagged for a closer look

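In 154 sets of 4 to 6 values of 1 gene, 14 had a highest or lowest value that stood apart from the others by a gap test that chance passes in about 1 set in 20. In embryos this was 9 of 72 sets of 4 windows. At 2-4 h the ratio against cntrl2 stood high for Prosalpha4 (0.40, others -0.035 to 0.0030), Rpn11 (0.23), Rpt5 (0.11) and Prosalpha4T1 (0.17), and the ratio against cntrl1 stood high for Rpt5 (0.14). Prosbeta5 stood low against cntrl2 at 6-8 h (0.18, others 0.52 to 0.55). Prosalpha4T1 stood low against cntrl1 at 2-16 h (-0.12). Prosalpha4T2 stood high against cntrl1 at 2-16 h (0.013) and low against cntrl2 at 4-6 h (-0.19). In adults it was 5 of 82 sets. The control male library was the lowest male for Rpt3R (4.97) and for the dim probe set of Prosbeta6 (4.05), and the wt male library was the highest male for Rpn3 (8.86). Among females, the heterozygote X113_Y79 was lowest for Rpn5 (9.26), and the mnn- library Y79_X46 was highest for Rpn12R (3.91).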

How the results depend on the processing

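The adult sex pattern kept its direction and its side of the threshold in all 691 repeats of the 39 called probe sets, over arrays left out, scaling and the variance model. The count of core probe sets lower in males ranged from 26 to 27. The count of paralogs higher in males was 2 with probe sets above the median only, and likewise 2 within mnn- and 2 within non-mutant flies, because only 2 paralog probe sets are left under that filter. Quantile normalization moved the medians to -0.88 for core and 0.83 for paralogs. No result reversed.

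The embryo calls were less stable, while the ratios of the 6 called spots ran from 0.20 to 0.31 with 1 window left out. Over 4 windows, the count of member spots ranged from 0 to 5 with 1 window left out. It was 0 with each array as its own value, 0 with cntrl1 alone and 2 with cntrl2 alone. Of 60 repeats of the 6 called spots, 25 stayed past the threshold and 35 did not, and the direction was kept in all. Against cntrl2, the count of 2 ranged from 0 to 1 with 1 window left out. The cause was not tested. The share of all spots that passed was not counted with a window left out or with each array as its own value. Every 0 for a genotype or a single window stayed 0 under each alternative run. The array numbers in the titles pair no samples, but 4 crosses were measured in both sexes. With the cross as a replicate block on those 8 arrays, an alternative chosen after seeing the data, 26 core probe sets were lower and 13 paralogs higher in males, with medians of -0.78 and 0.96. For this and the other adult alternatives, the share of all probe sets that passed was not counted. Whether the 2 arrays of a cross share a culture is not given.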
